A study of Mus musculus with 16 samples.

Results

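Strain differences between NOD and B6g7 were read in double-positive (CD4+CD8+) thymocytes that carried no transgene and came from fetal thymic organ culture, in which thymus lobes of fetal mice are kept alive in a dish. The members were chosen by their labels: 2 arrays from wild-type NOD and 2 from wild-type B6g7, which made 4 of the 16 arrays of the series. NOD is the inbred strain that develops autoimmune diabetes, and B6g7 is C57BL/6 carrying the NOD haplotype of the major histocompatibility complex (MHC), so the strains share their MHC and differ elsewhere. The other 12 arrays came from BDC2.5 mice, which carry the T cell receptor (TCR) of a diabetogenic CD4 T cell clone, on the same NOD or B6g7 background, without peptide or at 16 h of peptide (n = 3 for each strain and state). They were used for the spread of each probe set and for reading the same strain difference again. The labels do not give the age or sex of the fetuses, or whether the wild-type cultures received peptide. Nor do they say whether the arrays of a group came from separate animals. How far the p-values measure spread between animals is thus not known. Each value is the intensity deposited by the authors for 1 probe set, a group of probes that reads 1 stretch of a transcript.

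Double-positive thymocytes make up most of the thymus. They carry both coreceptors, rearrange the TCR alpha chain and are then kept or deleted according to how their receptor binds self peptide on MHC. In NOD mice this deletion is known to be less efficient, and loci outside the MHC contribute to that. Wild-type cells carry many receptors where BDC2.5 cells carry mostly one, so a strain difference in wild-type cells is read without the selection that a single transgenic receptor imposes.

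The 4 arrays had median intensities between 55.3 and 56.6 and first quartiles between 21.9 and 22.9. The deposited table has no detection calls, so values near those quartiles are close to the dim end of the scale. The arrays differed more by their number in the title than by strain. Same-numbered arrays of the 2 strains correlated at r = 0.9882 and 0.9906 over 12422 probe sets, against 0.9725 between the B6g7 arrays and 0.9503 between the NOD arrays. For beta-actin, the log2 signal at the 3' end exceeded that at the 5' end, a gap that measures transcript integrity and was 2.61 and 3.08 on the arrays numbered 1 (B6g7, NOD) and 1.96 and 1.86 on those numbered 2. Xist, the RNA of the inactive X chromosome, stood at 15.4 and 16.2 on the arrays numbered 1 and at 446 and 1028 on those numbered 2. The 2 arrays of each strain were thus not repeats of 1 RNA sample. Eif2s3y, a Y-linked gene, lay between 136 and 270 on all 4. Both numbers hold 1 array of each strain, and the part of these measures in the results below was not tested beyond the differences within each number, which are given beside the values.

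Genes that define the double-positive stage were bright on all 4 arrays. Dntt, the enzyme that adds bases at V(D)J joints, had intensities of 4203 and 4273 in B6g7 and 4208 and 4624 in NOD. Rag1, a subunit of the recombinase, had 2552 and 4745 against 1831 and 4467, and Cd8a, a coreceptor chain, 2525 and 5146 against 2416 and 4257. For these genes the groups overlapped. Cd4 gave 244 and 327 against 262 and 293. Leaving out Cd8b1, which is described below, the other 7 measured markers of this stage differed between strains by -0.28 (Rag1) to 0.34 (Ptcra, the pre-TCR alpha chain) on the log2 scale. Of 8 markers 0 had a mean intensity under 50. Markers of the labelled cell type were thus bright in both strains.

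Other cell types were looked for with lists of their markers. Over all 8251 genes 6 were called (0.0727%), so 0 calls is the usual outcome for a short list, here and below. Of 11 B cell markers 0 were called, and their summed intensity was 1712 and 1518 in B6g7 and 2212 and 1310 in NOD, most of it from Ighm. Thymic epithelium (14 markers, 0 called) gave 1394 and 1289 against 1318 and 1599. Mesenchyme and endothelium (21 markers, 0 called) summed to 1452 and 1374 against 1409.5 and 1242, erythroid markers (10, 0 called) to 490.4 and 520.4 against 499 and 474, and NK and innate lymphocyte markers (12, 0 called) to 586 and 698 against 467 and 583. Myeloid and dendritic cell markers (25, 0 called) summed to 2622 and 2477 in B6g7 against 2064 and 2237 in NOD. Without Apoe the remaining 24 summed to 1799.9 and 2149 against 1962 and 2114, and each of them differed by -0.22 to 0.19. In these bulk samples, fewer cells of a type and less RNA per cell cannot be told apart.

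The question of the comparison was which genes differ between NOD and B6g7 in cells without a transgenic receptor. Few did at the size of this comparison. NOD cells had far less signal for Cnn3, Pdk1, Hat1, Agtrap and Slc1a5 than B6g7 cells, by 2.5-fold to 8.53-fold, and more for the long non-coding RNA Gm3716, by 3.90-fold. Whether each probe set reads the transcripts of both strains equally was not tested, since probe sequences and NOD alleles were not at hand. The BDC2.5 arrays compare the same strains and do not test it either. limma's moderated test on log2 intensities, fitted over all 16 arrays with 6 group means, called 11 of 12422 probe sets at a Benjamini-Hochberg adjusted p under 0.05 (0.0886%). Of these, 2 were higher in NOD (0.0161%) and 9 lower (0.0725%). An unadjusted p under 0.05 was reached by 259 probe sets (2.09%). In all 11 called sets the 2 NOD arrays lay apart from the 2 B6g7 arrays, a separation that 20.9% of all probe sets also showed (14.3% with NOD lower, 6.55% with NOD higher). With 2 arrays against 2 an exact permutation test has 6 assignments and cannot give a two-sided p under 0.3333, so the calls rest on the spread that limma takes from the other groups as well. Fitted on the 4 wild-type arrays alone, limma called 0 sets, and 194 had an unadjusted p under 0.05. Leaving out the array B6g7 1, B6g7 2, NOD 1 or NOD 2 in turn left 2, 6, 4 or 7 calls, and AI506816 and Gm3716 passed each time, Pdk1 in 3 of the 4, 95003_at in 2, Cnn3, Hat1 and 104537_at in 1, and the other 4 called sets in 0.

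**Figure D1:**
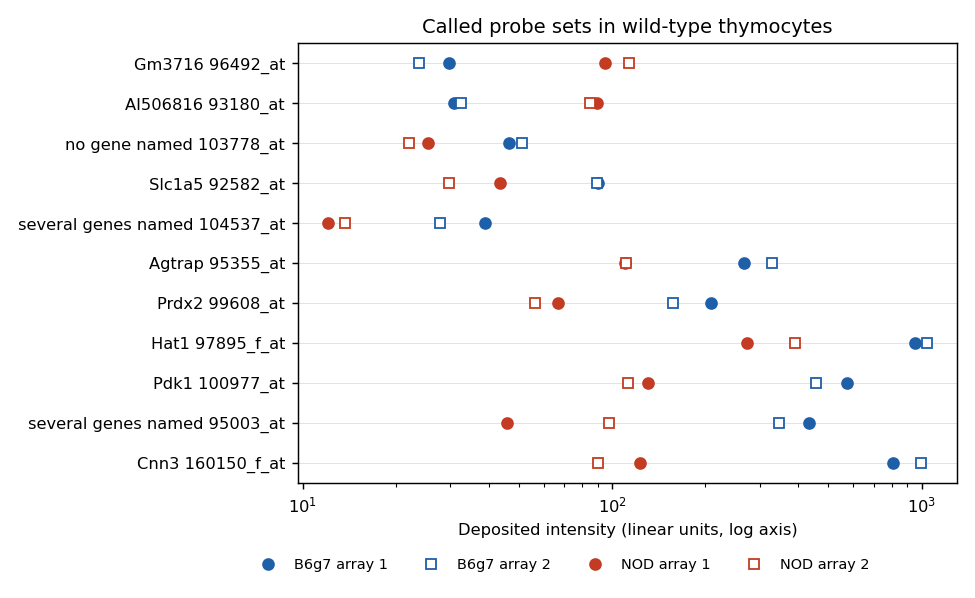
Deposited intensity (log axis) of the 11 called probe sets on the 4 wild-type arrays, with blue for B6g7, red for NOD, filled circles for arrays numbered 1 and open squares for those numbered 2. In 9 sets both NOD points lie left of both B6g7 points, down to 90.2 for Cnn3 against 809 and 999 in B6g7, and in 2 sets they lie right of them.

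Metabolic genes were led by Pdk1. This kinase phosphorylates and so inhibits pyruvate dehydrogenase, which uses pyruvate in the mitochondrion. Its intensity was 576 and 456 in B6g7 and 131 and 113 in NOD, so both NOD arrays lay far below both B6g7 arrays. The log2 difference (NOD minus B6g7) was -2.08 ± 0.23 (standard error; limma adjusted p = 0.00188), and it was -2.14 between the arrays numbered 1 and -2.02 between those numbered 2. Slc1a5, a transporter of glutamine and other neutral amino acids, was dimmer: 90.2 and 89.1 in B6g7 against 43.4 and 29.7 in NOD. It fell by 1.32 ± 0.22 on the log2 scale (limma adjusted p = 0.0444), near the threshold. Of the 25 measured genes of glycolysis and amino acid transport these 2 were called, both lower. The others included Pdk3 at 0.33, the lactate dehydrogenase genes Ldhb at 0.86 and Ldha at -0.09, the glucose transporters Slc2a1 at -0.03 and Slc2a3 at 0.16, and the Slc7a5 and Slc3a2 chains of another amino acid transporter at -0.18 and 0.27. Ldhb read 763 and 545 in B6g7 and 1111 and 1240 in NOD, which did not overlap, and it was not called (limma adjusted p = 0.9998). The median over the list was 0.04, against -0.02 over the 8251 genes measured by their brightest probe set, of which 6 were called (0.0727%) and 168 had an unadjusted p under 0.05 (2.04%).

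Hat1, the acetyltransferase that acts on newly made histone H4 before it is built into chromatin, read 954 and 1045 in B6g7 and 274 and 389 in NOD. Both NOD values were under both B6g7 values. The difference was -1.61 ± 0.24 (limma adjusted p = 0.0160), or -1.80 and -1.43 within the numbers. A second, dimmer probe set of Hat1 read 59.8 and 130 against 29.1 and 157, so the groups overlapped there (-0.38 ± 0.70). Hat1 was the only called gene among 37 of DNA replication and chromatin assembly, whose median was -0.07. The histone chaperones Asf1b and Nap1l1 differed by -0.11 and -0.13, each with overlapping groups.

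Hat1 and Pdk1 lie on the same chromosome with 4 protein-coding genes between them in the RefSeq order, of which 3 are on the array. Dlx1 and Dlx2, homeobox genes, were near the floor at 10.3 to 21.8 and differed by -0.02 and -0.01. Itga6, an integrin chain, read 57.0 and 53.1 in B6g7 and 88.8 and 162 in NOD, a difference of 1.13 in the other direction that was not called. Within 6 protein-coding genes on either side, 10 of 18 genes were measured, and Hat1 and Pdk1 were the 2 called. The promoters of these neighbours are shown because both genes were lower in NOD, and that of Cnn3 because its difference was the greatest. Each runs from 250 bases before to 50 after the RefSeq start (GRCm38.p6), 5' to 3' on the gene's strand, with capitals for the hexamer CACGTG, whose core ACGTG is the shared centre of the sites of several basic helix-loop-helix factors.
Hat1, chr2:71389010-71389309, plus strand: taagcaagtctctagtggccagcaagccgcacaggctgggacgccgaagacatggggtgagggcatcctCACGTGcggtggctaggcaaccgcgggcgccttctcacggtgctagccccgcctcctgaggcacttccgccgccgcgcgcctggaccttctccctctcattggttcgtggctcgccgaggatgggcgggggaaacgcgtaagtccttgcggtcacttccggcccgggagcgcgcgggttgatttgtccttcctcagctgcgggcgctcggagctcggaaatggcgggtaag
Pdk1, first of 2 RefSeq starts, chr2:71872974-71873273, plus strand: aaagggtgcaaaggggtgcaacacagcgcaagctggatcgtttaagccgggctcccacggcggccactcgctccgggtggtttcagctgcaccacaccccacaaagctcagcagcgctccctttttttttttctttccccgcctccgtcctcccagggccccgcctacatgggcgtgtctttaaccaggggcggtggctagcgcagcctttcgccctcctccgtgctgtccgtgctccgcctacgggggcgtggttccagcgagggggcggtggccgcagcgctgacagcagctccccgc
Cnn3, chr3:121426291-121426590, plus strand: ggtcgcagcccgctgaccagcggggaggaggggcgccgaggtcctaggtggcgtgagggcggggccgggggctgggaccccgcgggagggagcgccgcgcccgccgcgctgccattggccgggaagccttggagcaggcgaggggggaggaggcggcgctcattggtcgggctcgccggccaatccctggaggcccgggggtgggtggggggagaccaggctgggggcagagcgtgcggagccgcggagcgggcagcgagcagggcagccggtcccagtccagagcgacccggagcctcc
CACGTG was searched on both strands, and ACGTG lies within it on each. Hat1 held CACGTG 1 time in this window, as did Agtrap (not printed), while the printed windows of Pdk1 and Cnn3 held no ACGTG. Of 32851 promoters of the same length, 7.15% held CACGTG and 19.6% held ACGTG. The sequences are those of the reference strain C57BL/6J, and the NOD alleles were not used here.

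Genes of the cytoskeleton and membrane followed. Cnn3, an actin-binding calponin, had the greatest called difference: 809 and 999 in B6g7 against 123.1 and 90.2 in NOD, with no overlap. It was 8.53-fold higher in B6g7 (log2 -3.09 ± 0.40, limma adjusted p = 0.00693), and the numbers gave -2.72 and -3.47. Agtrap, which binds the type 1 angiotensin II receptor and promotes its internalisation, read 266 and 329 against 110.2 and 110.5 (-1.42 ± 0.22, limma adjusted p = 0.0239). Vcl, the focal adhesion protein vinculin, went the other way at 26.5 and 29.5 in B6g7 and 57.4 and 81.7 in NOD, and was not called (1.29 ± 0.28, limma adjusted p = 0.174). Its dimmer set gave 0.09 ± 0.09.

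Prdx2, a peroxiredoxin that removes hydrogen peroxide, was called by 1 of its 3 probe sets. That set (99608_at) read 208 and 157 in B6g7 and 66.9 and 56.4 in NOD (-1.56 ± 0.23, limma adjusted p = 0.0185). The brightest set read 1552 and 1195 against 1913 and 1311, which overlapped (0.22 ± 0.30), and the other was at 11.7 to 12.9 on all arrays. The sets of Prdx2 therefore disagree, and the called one was chosen for the text after its values were seen. Of 33 antioxidant and detoxification genes read by their brightest set, 0 were called. Gsta4, a glutathione transferase, gave 30.2 and 32.2 against 115 and 60.9 (1.43 ± 0.32, limma adjusted p = 0.189).

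Both calls in the upward direction were long non-coding RNAs of unknown role here. Gm3716 rose from 29.6 and 23.8 in B6g7 to 94.6 and 113 in NOD (1.96 ± 0.18, limma adjusted p = 0.000523), and the numbers gave 1.68 and 2.25. AI506816, by the probe set 93180_at, rose from 30.7 and 32.5 to 89.5 and 84.5 (1.46 ± 0.14, limma adjusted p = 0.000639). The B6g7 values of both are near the first quartile of the arrays. AI506816 has a brighter probe set that read 228 and 211 in B6g7 and 85.5 and 170 in NOD, lower rather than higher (-0.87 ± 0.39, limma adjusted p = 0.9998). Its called set was therefore also chosen after its values were seen.

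The remaining 3 called probe sets name several genes or none, and are given by their identifiers, chosen after their values were seen. The set 95003_at read 432 and 347 in B6g7 and 45.9 and 97.8 in NOD (-2.53 ± 0.33, limma adjusted p = 0.00693). The set 104537_at read 38.7 and 27.8 against 12.02 and 13.7 (-1.35 ± 0.19, 0.0127), and 103778_at read 46.3 and 51.3 against 25.5 and 22.1 (-1.04 ± 0.17, 0.0424). All were lower in NOD on both arrays, the last 2 from values below the array medians.

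Just inside the threshold lay 103778_at and Slc1a5. Just outside it were Gemin5, a subunit of the complex that assembles spliceosomal ribonucleoproteins, and a dim probe set of Pclaf, which binds the replication clamp PCNA (both adjusted p = 0.0545). Gemin5 read 72.2 and 63.5 in B6g7 and 32.1 and 32.1 in NOD (-1.08), and Pclaf 33.5 and 38.0 against 17.7 and 19.4 (-0.94, or -0.92 and -0.97 within the numbers). The brightest set of Pclaf read 862 and 1185 against 415 and 1525, with overlap. Next came a probe set of the TCR alpha segment Trav9d-3 at 2.13 (adjusted p = 0.0592), described below.

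Among genes that did not pass, several had wide gaps between the strains. Apoe, the lipid carrier made by macrophages and other cells, read 822 and 328 in B6g7 and 102 and 124 in NOD (-2.21 ± 0.45, limma adjusted p = 0.139), and its second probe set stayed at 12.5 to 14.6. In BDC2.5 cells it differed by -1.68 without peptide (0.105) and by -2.42 at 16 h (0.0103). Pbx3, a homeobox cofactor, had 83.8 and 46.9 against 370.0 and 262 (2.31 ± 0.49, 0.161). Its other sets gave smaller differences, 0.43 ± 0.16 and, with overlapping groups, 0.30 ± 0.19. Hars, which charges tRNA with histidine, had 119 and 137 against 636 and 437 (2.05 ± 0.43, 0.161). It was called in BDC2.5 cells without peptide at 2.25 (0.0130) and at 16 h at 1.89 (0.0291). Zfp982, a zinc finger gene, gave 45.1 and 47.9 against 73.7 and 113 (0.97, 0.169), Srpk2, a kinase of splicing factors, 27.2 and 32.3 against 43.2 and 49.3 (0.64, 0.142), and Galnt11, which starts O-linked glycans, 52.4 and 55.7 against 88.3 and 89.2 (0.72, 0.161). Myzap, a cell-junction protein gene, was lower at 42.3 and 49.0 against 18.3 and 21.9 (-1.18 ± 0.22, 0.0802). Zfp982 and Galnt11 were also called in both BDC2.5 states with the same sign, whereas Pbx3, Srpk2 and Myzap were called in neither. The groups did not overlap for any of these 7 genes, which were chosen among the smallest p-values, so the separation follows from the choice.

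Coreceptor genes split. Cd8b1, the beta chain of CD8, read 3382 and 1745 in B6g7 and 645 and 690 in NOD by its 1 probe set, with no overlap (-1.86 ± 0.44, limma adjusted p = 0.272). Cd8a, its partner chain, differed by -0.17 ± 0.42 and Cd4 by -0.03 ± 0.22, both with overlapping groups. In BDC2.5 cells Cd8b1 read 1850.0 to 3132 in B6g7 and 521 to 1028 in NOD without peptide (-1.89, limma adjusted p = 0.0519). At 16 h it read 1308 to 3200 against 415 to 582 and was called (-2.02, 0.0247).

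In the TCR complex, Cd3g was the member with the smallest p. Cd3g read 703 and 682 in B6g7 and 1298 and 1601 in NOD, 2.08-fold higher without passing (1.06 ± 0.27, limma adjusted p = 0.399). In BDC2.5 cells it was called without peptide (1.17, 0.0459) but not at 16 h (0.93, 0.120). Cd3d gave 915 and 866 against 1025 and 1318 (0.38 ± 0.22), and Cd3e 245 and 266 against 271 and 254 (0.04 ± 0.19). Of 25 genes of the TCR complex and its proximal signalling 0 were called, 12 were higher in NOD and the median was -0.01. Ptpn22, a phosphatase that restrains TCR signals, stood at -0.92 ± 0.54, with 370 and 489 against 140 and 359. The groups did not overlap, but the second NOD array lay just under the lower B6g7 array.

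**Figure D2:**
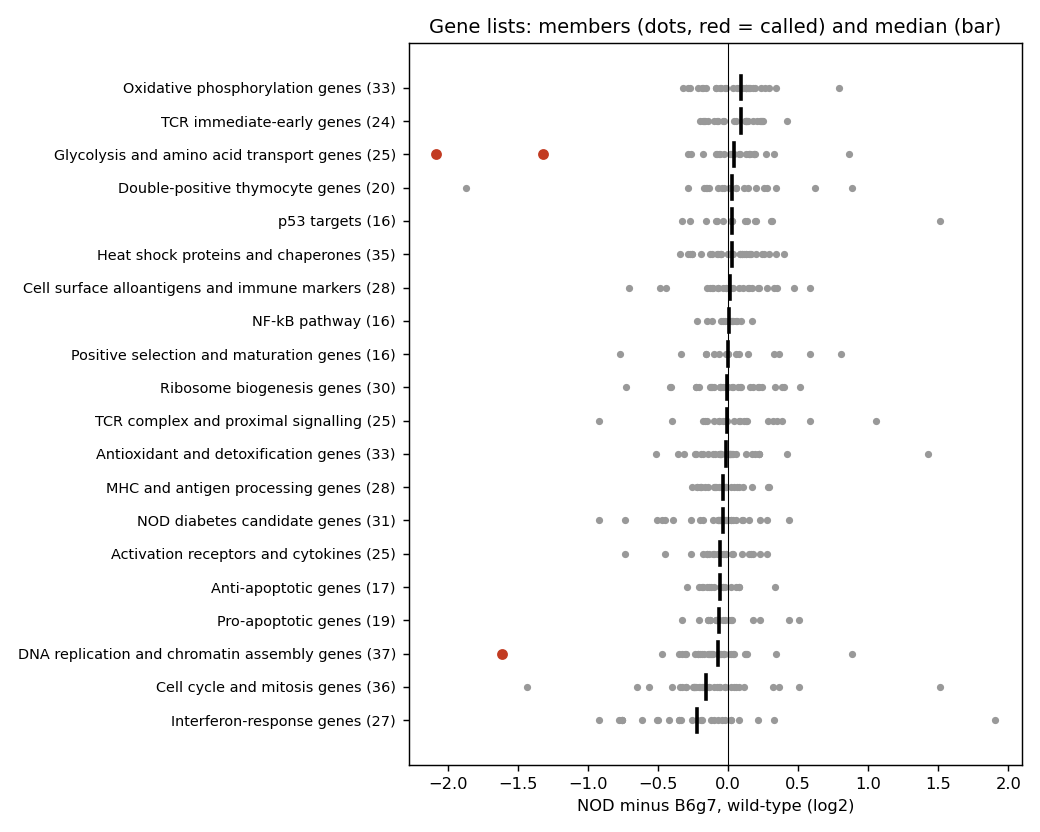
Log2 difference (NOD minus B6g7) of each measured member of 20 gene lists in wild-type thymocytes, with 1 dot per gene by its brightest probe set, red for called members, and a black bar at the median (number measured in parentheses). Medians lie between -0.22 for interferon-response genes and 0.09 for TCR immediate-early and oxidative phosphorylation genes, and Pdk1, Slc1a5 and Hat1 are the 3 red dots.

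Lists of genes that act in selection had 0 calls each. With 0.0727% of all 8251 genes called, lists of their size would mostly have none, so this does not set them apart. Of 24 TCR immediate-early genes 0 were called, with all members between -0.20 (Egr2) and 0.42 (Ier2). Nr4a1, the orphan receptor induced by TCR signals, read 149.6 and 133 in B6g7 and 191 and 127 in NOD. Of 19 pro-apoptotic genes 0 were called, and Bcl2l11 (Bim), which drives deletion of thymocytes, read 213 and 231 against 311 and 289 (0.43 ± 0.31, limma adjusted p = 0.9998). Its groups did not overlap by this set, while its dimmer sets gave -0.07 and -0.04. Of 17 anti-apoptotic genes 0 were called, and Bcl2 gave 178 and 180 against 208 and 171. Activation receptors and cytokines (25), NF-kB pathway genes (16) and genes of positive selection and maturation (16) also had 0 calls each, with medians of -0.06, 0.01 and 0.00. Cd5, whose level follows TCR signal strength, had 630 and 320 against 1158 and 391, overlapping. Its value followed the array number more than the strain.

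Of 36 cell cycle genes 0 were called. Their median was -0.16, and 9 were higher in NOD and 27 lower, while over all 8251 genes 42.4% were higher and the median was -0.02. The list's median was -0.27 between the arrays numbered 1 and 0.05 between those numbered 2. Kif23, a kinesin of the spindle midzone, gave 888 and 697 in B6g7 and 233 and 363 in NOD (-1.44 ± 0.36, limma adjusted p = 0.343). Cdkn1a (p21), an inhibitor of cyclin-dependent kinases and a p53 target, went the other way: 218 and 148 against 691 and 380 (1.51 ± 0.34, 0.189), and 0.96 by its second probe set. In BDC2.5 cells Kif23 was called without peptide (-1.56, limma adjusted p = 0.0442) and at 16 h (-1.46, 0.0425). Cdkn1a was called in neither state (1.03, 0.334 and 0.91, 0.409). Of 16 p53 targets 0 were called and the median was 0.03.

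Interferon-response genes had the lowest median of the lists, -0.22, and 0 of 27 were called. Of these, 6 were higher in NOD and 21 lower, against 42.4% higher over all genes. Here too the numbers differed, with medians of -0.03 between the arrays numbered 1 and -0.41 between those numbered 2. In BDC2.5 cells the list's median was -0.575 without peptide and -0.346 at 16 h, against 0.031 and 0.004 over all genes. Its members had 0 calls in either state. Usp18, which trims the ubiquitin-like protein Isg15 from its targets, read 115 and 792 in B6g7 and 85.6 and 371 in NOD. Isg15 itself read 79.8 and 369 against 97.1 and 338. In both genes array 2 was several times brighter than array 1 in both strains, so the spread within a strain exceeded the difference between strains. Of the 6 members higher in NOD, Ifi204, an interferon-inducible nucleic acid sensor, had the greatest difference at 67.4 and 158 against 274 and 543 (1.90 ± 0.57, limma adjusted p = 0.832), 2.02 and 1.78 within the numbers. Its other sets were dim, at 9.39 to 38.0, and gave 0.26 and -0.14.

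MHC genes, whose haplotype the strains share by construction, gave no call. Only 6 of all 8251 genes were called (0.0727%), so 0 calls does not set a list of this size apart. Of 28 measured genes of MHC and antigen processing 0 were called, and all lay between -0.26 (Psmb9) and 0.29 (H2-Aa). H2-K1, a class I chain, read 164 and 318 in B6g7 and 180 and 264 in NOD, and H2-Ab1, a class II chain, 76.0 and 63.3 against 78.9 and 59.6. Over all 38 probe sets of 28 H2 genes 0 were called and 37 lay within 0.5 of 0. The other was H2-T18, a class Ib gene, at 3141 and 2453 against 4184 and 3898 (0.54 ± 0.33). Some H2 genes are near-identical to each other, so their probe sets may read more than 1.

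Genes proposed to underlie NOD diabetes gave 0 calls among 31 measured, where 0.0727% of all 8251 genes were called. Their median was -0.04, and 20 had a mean intensity under 50. Acadl, an acyl-CoA dehydrogenase gene of a diabetes locus, read 47.9 and 42.2 in B6g7 and 31.7 and 33.1 in NOD (-0.47 ± 0.15, limma adjusted p = 0.964). In BDC2.5 cells it was called at 16 h (-0.74, 0.0143) but not without peptide (-0.52, 0.154). Ctla4, an inhibitory receptor, read 22.01 and 26.6 against 19.4 and 16.1, and Il2 was at 11.2 to 13.3 on all arrays. B2m, the light chain of class I MHC, had 1671 and 3213 against 1437 and 2842, with overlap. The remaining lists (ribosome biogenesis, 30 genes; heat shock proteins and chaperones, 35; oxidative phosphorylation, 33; alloantigens and immune markers, 28; double-positive thymocyte genes, 20) each had 0 calls and medians between -0.01 and 0.09.

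TCR gene segments are of interest because wild-type cells rearrange their own. Trav9d-3, a variable segment of the alpha chain, was higher in NOD by its 2 bright probe sets. One (97945_at) read 214 and 417 in B6g7 and 1378 and 1241 in NOD (2.13 ± 0.38, limma adjusted p = 0.0592). The other (97944_f_at) read 444 and 733 against 1404 and 1578 (1.38 ± 0.29, 0.161). The dimmest was at 42.4 to 51.2 and gave 0.18 ± 0.11. Segments of this family are near-identical, so the signal may come from several. In BDC2.5 cells without peptide the same 97945_at set averaged 2827 in B6g7 and 2664 in NOD, with a strain difference of -0.09. The excess of the wild-type over the BDC2.5 strain difference was 2.21 ± 0.49 and did not pass limma's test (unadjusted p = 0.000483, adjusted p = 1). The gamma segment Trgv4 read 84.0 and 88.6 against 46.4 and 59.7 (-0.71 ± 0.23, limma adjusted p = 0.968), and its groups did not overlap. The bright probe set annotated to the beta segment Trbv1 was at 8569 to 9802 on the 4 wild-type arrays, with overlap. The dimmer set of Trbv1 read 197 and 172 in B6g7 against 115 and 149.9 in NOD, which did not overlap (-0.49 ± 0.18, limma adjusted p = 0.9998). In BDC2.5 cells without peptide the bright set averaged 11312 in B6g7 and 12175 in NOD, and the dimmer set 52.7 and 55.8. The sets thus moved in opposite directions, and whether the bright one reads this segment alone was not tested.

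The titles number the arrays, and same-numbered arrays were also read as pairs. Across probe sets, the deviations of same-numbered NOD and B6g7 arrays from their group means correlated at r = 0.81 (n = 12422 probe sets, which are not independent). With 2 arrays in a group the deviations of numbers 1 and 2 are mirror images, so this is 1 observation of a shared number effect. It was wider than the strain effect: the median absolute log2 difference between numbers was 0.17, against 0.09 between strains. Over 2-fold differences in both strains separated array 2 from array 1 in 433 probe sets, while NOD differed from B6g7 over 2-fold in both numbers, in the same direction, in 43 (18 higher, 25 lower). The strain differences of the 2 pairs correlated weakly over all probe sets (r = 0.175, Spearman's rho 0.004). Of the 11 called sets, 10 were among the 43, and all 11 had the same sign in both pairs. That shared sign was fixed in advance, since the groups of the called sets did not overlap. The pairs also hold the same wild-type arrays whose difference was called, so neither count is a separate check of the calls.

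**Figure D3:**
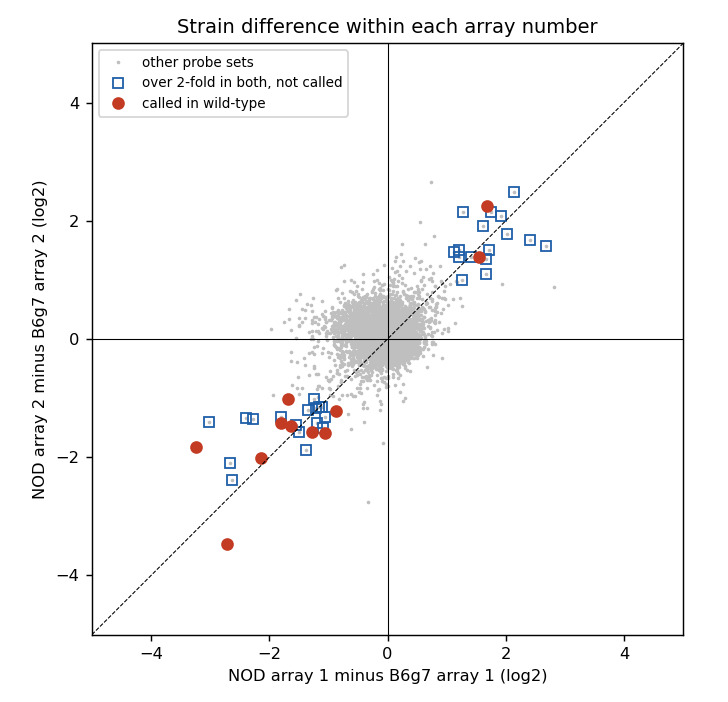
Log2 strain difference between the arrays numbered 1 (x axis) and between those numbered 2 (y axis) for 12422 probe sets of wild-type thymocytes, with red for called sets and blue squares for other sets over 2-fold in both pairs. The red points lie along the diagonal from Cnn3 at -2.72 and -3.47 to Gm3716 at 1.68 and 2.25, whereas most grey points form a cloud around 0. The red sets were called from these same arrays and their groups do not overlap, so their shared sign is fixed in advance.

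Further genes over 2-fold apart in both pairs were not called, and the examples were chosen after their values were seen. Tmem14c, a mitochondrial membrane protein needed for heme synthesis, read 264 and 317 in B6g7 and 42.8 and 60.5 in NOD. Spg21, an endolysosomal protein, read 258 and 273 against 91.4 and 91.9. Anxa2, a calcium-dependent membrane-binding annexin, gave 1876 and 1819 against 719 and 495. Wdr92, an assembly factor of axonemal dynein, read 368 and 649 against 1392 and 2747, and Cxcr4, a chemokine receptor of thymocyte migration, 41.9 and 54.2 against 100.04 and 109. With the array number as a block, kept apart for wild-type and BDC2.5 arrays, limma called 43 sets instead of 11 (18 higher and 25 lower, 41.9% higher instead of 18.2%). All 11 stayed among them, and Cd8b1, Cdkn1a, Pbx3, Trav9d-3, Apoe, Tmem14c, Spg21 and Cxcr4 were added. The labels do not say that a number marks a shared culture or day, so that count rests on an assumption.

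The same strain difference was then read in the 12 BDC2.5 arrays, which the wild-type comparison shares no array with, although all share the fit's estimate of spread. BDC2.5 cells without peptide gave 33 calls (0.266%) and those at 16 h of peptide 61 (0.491%), with 3.45% and 5.68% of all sets at an unadjusted p under 0.05. In all 11 wild-type calls the strains also lay apart in both BDC2.5 states, as they did in 5.6% and 11.8% of all sets. All 11 wild-type calls were among the 33, which is 33.3% of these, and 10 were among the 61, which is 16.4% of these, always with the same sign. Cnn3 was the exception at 16 h, at -1.58 (limma adjusted p = 0.0541), since it read 481 to 864 in B6g7 and 193 to 199 in NOD there. Pdk1 read 253 to 334 in BDC2.5/B6g7 without peptide and 85.6 to 112 in BDC2.5/NOD, and 202 to 257 against 78.1 to 109 at 16 h. All 16 arrays thus separated by strain for Pdk1. Hat1 differed by -1.31 and -1.44 in the 2 states, Agtrap by -1.11 and -1.08, and Gm3716 by 1.35 and 1.17. The median size of the 11 differences was 1.56 in wild-type cells and, in the same direction, 1.35 in BDC2.5 cells without peptide.

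**Figure D4:**
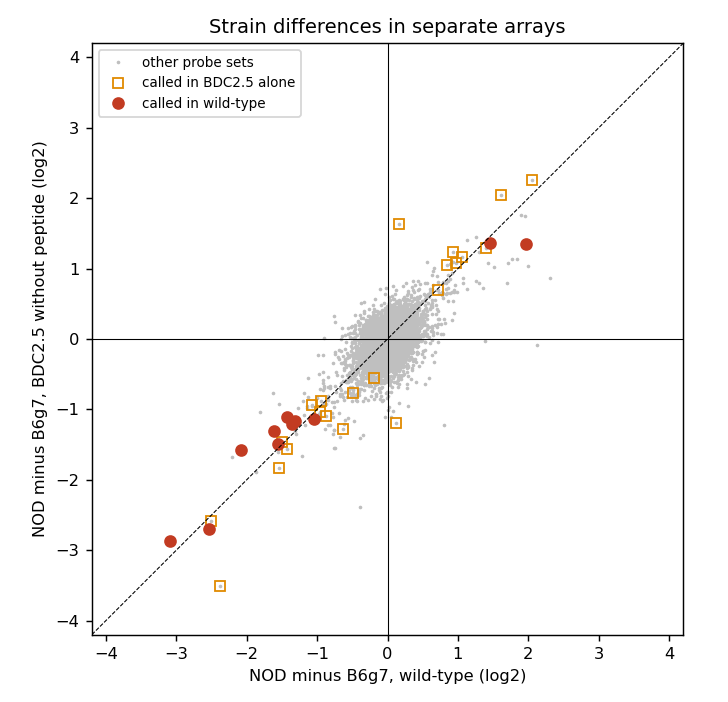
Log2 strain difference in wild-type thymocytes (x axis) against that in BDC2.5 thymocytes without peptide (y axis) for 12422 probe sets, with red for sets called in wild-type cells and orange squares for sets called in BDC2.5 cells alone; the dashed line marks equal differences. The red points follow the line from Cnn3 at -3.09 and -2.87 to Gm3716 at 1.96 and 1.35, and Col1a2 and Pelo are the orange squares near 0 on the x axis with 1.63 and -1.19 on the y axis.

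Read from the other side, 32 of the 33 probe sets called in BDC2.5 cells without peptide had the same sign in wild-type cells, and in 30 the wild-type groups did not overlap in that direction. The 3 exceptions, named after their values were seen, were Pelo, Col1a2 and Gm11346. Over all 12422 probe sets, 6523 had the same sign in wild-type cells and BDC2.5 cells without peptide. The wild-type groups did not overlap in 14.3% of all sets with NOD lower and in 6.55% with NOD higher. Pelo, a ribosome rescue factor, by its dimmer set 98017_at, read 84.3 to 115 in BDC2.5/B6g7 and 41.8 to 43.6 in BDC2.5/NOD, but 41.2 and 38.6 against 45.0 and 41.8 in wild-type cells, a gap of 0.12 in the other direction. The difference of its strain differences was 1.31 ± 0.22 (unadjusted p = 3.17e-05, limma adjusted p = 0.394), the smallest p of that test. Col1a2, a collagen chain, by its set 101130_at, differed by 1.63 in BDC2.5 and 0.17 in wild-type cells, and its second set did not separate the strains in either. limma called 0 of 12422 probe sets for a strain difference that differed between wild-type and BDC2.5 cells without peptide, with 104 at an unadjusted p under 0.05 (0.837%). Against the mean of both BDC2.5 states it called 0, with 149 (1.20%). Over all probe sets the strain differences of wild-type and BDC2.5 cells without peptide correlated at r = 0.557 and rho = 0.251, and with those at 16 h at 0.382 and 0.12.

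Gimap4, a GTPase that rises as thymocytes mature, had opposite strain differences without overlap. It read 104 and 157 in wild-type B6g7 and 196 and 254 in wild-type NOD (0.81 ± 0.37). Without peptide it read 744 to 976 in BDC2.5/B6g7 and 333 to 376 in BDC2.5/NOD (-1.22 ± 0.30). Neither difference was called (limma adjusted p = 0.9998 and 0.207). At 16 h of peptide the BDC2.5 strains overlapped, at 538 to 1253 in B6g7 and 406 to 671 in NOD (-0.52 ± 0.30). The difference between wild-type cells and BDC2.5 cells without peptide was 2.03 ± 0.47 (unadjusted p = 0.000806) and did not pass over all probe sets (limma adjusted p = 1). Its level in wild-type cells of either strain was below that in every BDC2.5 array.

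**Figure D5:**
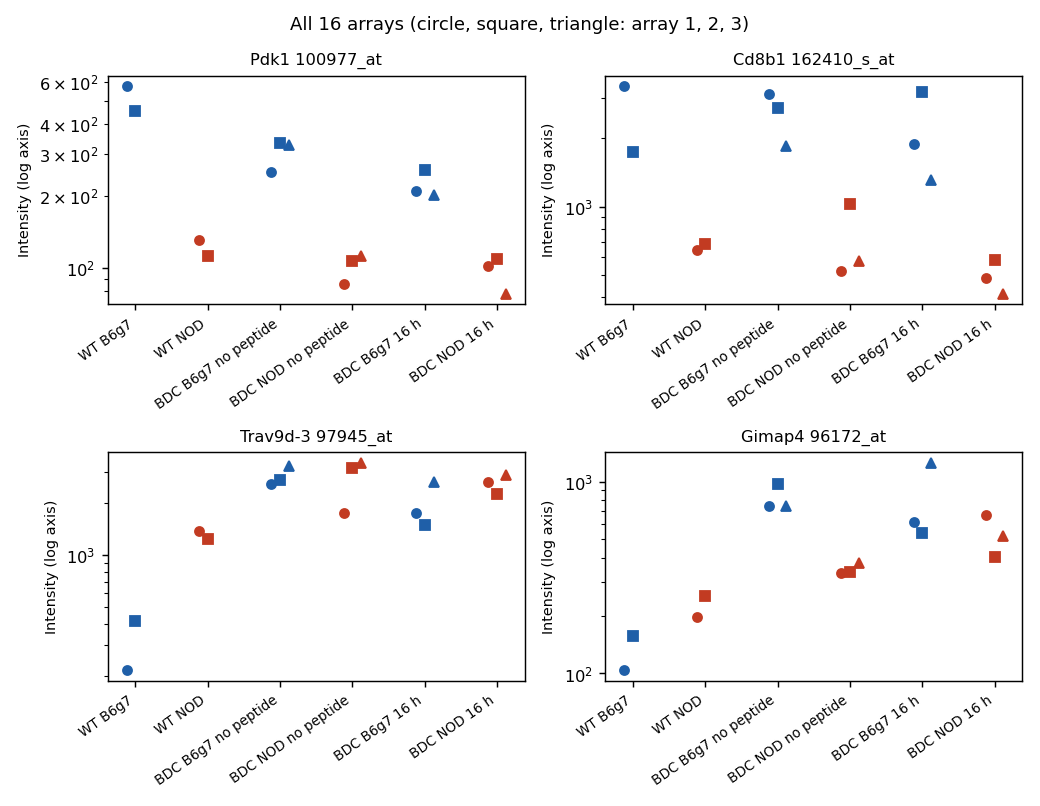
Deposited intensity (log axis) of Pdk1, Cd8b1, Trav9d-3 (97945_at) and Gimap4 on all 16 arrays by group, with blue for B6g7, red for NOD, and circles, squares and triangles for array numbers 1, 2 and 3. Pdk1 and Cd8b1 separate by strain in each state, Trav9d-3 does not overlap in wild-type cells (214 and 417 against 1378 and 1241) and overlaps in both BDC2.5 states, and Gimap4 separates in opposite directions in wild-type cells and BDC2.5 cells without peptide.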

How the data were processed

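RNA of 16 thymocyte samples was read on Affymetrix arrays. The values are the intensities deposited by the authors, on a linear scale and positive throughout (7.77 to 14085), and their scaling, background correction and probe set summary are not given in the sources used here. Array medians over the 16 arrays lay within 0.11 on the log2 scale, so no further scaling was applied. Of 12488 probe sets, 66 controls were left out and 12422 were tested. The platform annotation gave 1 gene for 10833, several for 396 and none for 1193. By gene ID 10817 matched RefSeq, and 0 symbols changed. A gene with several probe sets was read by its brightest, which left 8251 genes.

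Intensities were turned to log2 with no pseudocount and fitted with limma 3.58.1 in R 4.3.3 (lmFit, then eBayes with an intensity trend) as 6 group means over all 16 arrays, with 10 residual and 3.60 prior degrees of freedom. Errors after ± are standard errors of that fit, tests are two-sided, and p-values were adjusted by Benjamini-Hochberg over all probe sets. Called means an adjusted p under 0.05. The fit was tested on simulated data. The number of arrays limits the precision.

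Members and gene lists were chosen with earlier results of these data known. The rule for named genes took up to 12 called genes each way, filled to 8 by the smallest p, the 3 genes of smallest p in each list, the leading BDC2.5 genes and a set of thymocyte genes. Others were named after their values were seen, to illustrate a list, a pair or a contrast. Alternatives were only the wild-type arrays, array number as a block, quantile normalization, median centring, an offset of 16, a minimum mean intensity of 50, no trend, array weights and leaving out arrays. The replicate number did not meet the rule for paired samples, since the labels do not say what it marks and the wild-type groups hold only 2 numbers.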

Additional observations from a re-analysis of the deposited data

Results flagged for a closer look

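For Gimap4 and Pelo the strains lay apart in opposite directions in wild-type cells and in BDC2.5 cells without peptide. Strains also lay apart in 20.9% and 5.6% of all probe sets there. In wild-type cells neither was called (limma adjusted p = 0.9998 for both). In BDC2.5 cells without peptide Pelo was called (0.00125) and Gimap4 was not (0.207). For Gimap4 the wild-type difference exceeded the BDC2.5 difference by 2.03 ± 0.47 on the log2 scale. In wild-type cells it was higher in 2 of 2 NOD arrays, and in BDC2.5 cells without peptide lower in 3 of 3. At 16 h of peptide its BDC2.5 strains overlapped (-0.52 ± 0.30), whereas those of Pelo did not (-0.83). For Pelo, by the set 98017_at, the excess was 1.31 ± 0.22, nearly all of it from the BDC2.5 side (-1.19) since the wild-type difference was 0.12 ± 0.17. The brightest set of Pelo gave -0.07 in wild-type and -0.21 in BDC2.5 cells. Neither passed limma's test of the difference over all probe sets (adjusted p = 1 for Gimap4 and 0.394 for Pelo). Groups of 2 and 3 arrays are too small for a test of single outlying arrays.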

How the results depend on the processing

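All 11 called sets kept their direction under every alternative in which they were tested. Their NOD arrays lay apart from their B6g7 arrays, so wherever the order of the arrays was kept this was fixed in advance. The 11 wild-type calls became 12 with quantile normalization, 10 with median centring, 14 with the offset, 11 among 6687 brighter sets, 9 without the trend and 9 with array weights. Using only the wild-type arrays gave 0, and 0 instead of 3 among list genes. Leaving out arrays gave 1 to 7 calls and 0 to 2 among list genes, the fewest (1) without both arrays numbered 1 or both numbered 2.

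With the array number as a block, wild-type calls rose to 32 over all 16 arrays, 43 with wild-type and BDC2.5 numbers kept apart, and 113 within the wild-type arrays, where the share higher in NOD was 46.9%, 41.9% and 45.1%. All 11 stayed called under each. List genes gave 5, 6 and 13 calls. The first 2 blocks gave 69 and 94 calls in BDC2.5 cells without peptide and 129 and 174 at 16 h. A block joining wild-type number 2 to BDC2.5 number 3, chosen after seeing the data, gave 48 (43.8% higher), 114, 183 and 6 in the same order of wild-type, BDC2.5, 16 h and lists. Array weights gave 63 and 362 in the BDC2.5 states. The cause of these changes was not tested. The test between wild-type and BDC2.5 strain differences gave 0 calls under each alternative run.

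With 2 arrays in a group and no detection calls, differences among dim sets are the least certain.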
